A study of Mus musculus with 4 samples.

Results

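The transcription factor p53 and 9 genes around it were followed in the livers of Hjv knockout mice and wild type mice kept on a low iron diet. The 10 genes are Trp53, which encodes p53, its inhibitor Mdm2, and the targets Cdkn1a, Ccng1, Zmat3, Bax, Trp53inp1, Phlda3, Sesn1 and Pcna, out of 21653 annotated protein-coding genes. Bax was chosen by its level, which was higher in knockout livers in these same data, so its values are a description with no test, and the question was whether other p53 targets shared that difference. The members were found as the assembled loci that overlap exons of the 10 genes on build GRCm38, 26 and 14 loci in the knockout libraries, against 14 and 13 in the wild type libraries.

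Hjv encodes hemojuvelin, a co-receptor for bone morphogenetic proteins through which hepatocytes sense iron and induce hepcidin. The knockout group held 2 liver libraries from mice with both copies of Hjv disrupted, and the wild type group held 2. All mice were C57BL/6 males that ate an AIN-93G diet with 2.5 ppm of iron from 5 weeks of age for 50 days, with livers taken at 12 weeks. Whether each library came from its own animal is not given in the labels, so any p-value measures only the spread between these libraries.

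p53 is held low in healthy tissue because Mdm2 binds it and marks it for degradation. When DNA is damaged or cells are otherwise stressed, p53 accumulates and switches on genes that stop the cell cycle, repair DNA, lower oxidants or release death signals at the mitochondrion, together with Mdm2, which closes the loop. In liver the same program restrains hepatocyte division after injury, and iron-loaded liver is a setting in which oxidative stress has been studied.

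The promoters of Bax and 3 other members are printed to show which letters of the p53 consensus each holds, pairs in Bax, Ccng1 and Cdkn1a and a single unit in Mdm2, the gene of the p53 feedback loop. A p53 response element is built of a pair of 10-base units, here called decamers. Capitals mark only the pair with the fewest mismatches in each promoter, or the exact decamer in Mdm2, so other matches can stand in lower case. The sequences are RefSeq promoters of build GRCm38.p6, each a window of 120 bases cut from the 250 bases before to 50 after the gene start, read 5′ to 3′ on the gene's strand.
Bax, chr7:45467029-45467148, minus strand: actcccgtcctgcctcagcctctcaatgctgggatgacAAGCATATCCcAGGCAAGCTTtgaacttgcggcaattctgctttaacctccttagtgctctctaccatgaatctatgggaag
Ccng1, chr11:40755412-40755531, minus strand: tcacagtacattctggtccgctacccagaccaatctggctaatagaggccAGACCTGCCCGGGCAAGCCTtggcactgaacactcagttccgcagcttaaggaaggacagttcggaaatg
Cdkn1a, chr17:29090859-29090978, plus strand: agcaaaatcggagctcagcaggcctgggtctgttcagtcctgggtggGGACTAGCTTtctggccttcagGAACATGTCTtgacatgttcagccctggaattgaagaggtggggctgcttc
Mdm2, chr10:117710880-117710999, minus strand: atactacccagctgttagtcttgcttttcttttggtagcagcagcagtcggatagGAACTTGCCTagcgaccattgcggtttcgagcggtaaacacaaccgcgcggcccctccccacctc
The p53 decamer consensus was searched on both strands, and an exact match stood in 8.36% of 32851 RefSeq promoters. A pair of decamers with at most 13 bases between them and at most 1 mismatch over its 20 letters stood in 1.09% of those promoters. Bax holds a pair that has 1 mismatch and a spacer of 1 base and lies 212 to 192 bases before the start. The Ccng1 pair has 1 mismatch and a spacer of 0 bases, 195 to 176 bases before the start. The capitalised Cdkn1a pair has 0 mismatches and a spacer of 12 bases, 73 to 42 bases before the start. The 10 lower-case bases right after its second decamer match the consensus with 1 mismatch. That second decamer and these bases therefore form another pair under the same rule, with a spacer of 0 bases and 1 mismatch. Within the bases searched, Mdm2 has a single exact decamer, 186 to 177 bases before the start. Sites outside the 250 bases before to 50 after the start were not searched for any gene.

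Of the 8 members with a promoter entry, 6 held an exact decamer, which were Bax, Ccng1, Cdkn1a, Mdm2, Sesn1 and Trp53, and 3 held a pair. Trp53inp1 and Zmat3 had no entry in the promoter table. A match is a description of letters and not a bound site. Among all genes tested, 60 had such a pair, of which 13 were above wild type in both knockout libraries (21.7%) and 15 were below (25%). The median log2 difference of those 60 genes was 0.05, against 0.02 over all genes tested.

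Levels are in FPKM, the fragments on a transcript per kilobase of its length and scaled to the mapped fragments of its library, which the authors deposited for each assembled locus with lower and upper confidence bounds. A gene's value is the mean over its loci weighted by exonic bases and scaled between libraries, and is called scaled FPKM. Knockout libraries had 56237 and 30190 loci and wild type libraries 41541 and 26238, and the steps between the bounds, if each is 1 fragment, correspond to 54.9 and 132 M fragments in knockout and 86.9 and 51.2 M in wild type. Knockout replicate 1 was the most fragmented, with 38.4% of its loci at 160 to 250 bases, against 4.26% in the other knockout library and 21.1% and 4.43% in the wild type libraries. Hjv itself had no value in knockout replicate 1 and measured 0.236 scaled FPKM in knockout replicate 2, against 9.22 and 29.6 in the wild type libraries, which fits the labels.

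Of the 10 members, 6 had loci spanning at least 50% of a coding transcript in every library and entered the test, and Cdkn1a, Zmat3, Trp53inp1 and Phlda3 did not. On the scaled values only Bax among those 6 lay above wild type in both knockout libraries, Ccng1 and Pcna lay below, and Trp53, Mdm2 and Sesn1 overlapped. The groups did not overlap for 46.1% of the 7926 genes tested, with 22.3% above in knockout and 23.8% below, and nothing is read from Bax, whose order follows from its choice. The members other than Bax that were tested had 0 above, 2 below and 3 overlapping of 5, with a median log2 difference of -0.20, against 0.02 over all genes tested. This order depended on the scaling. As deposited, 2 of the 6 were above, Bax and Trp53, and 1 was below, Pcna. These are 33.3% and 16.7%, against 35.9% and 9.21% of all genes tested at that scale. The median of the 6 was then 0.10, against 0.19. By limma on log2(scaled FPKM + 1), 0% of genes passed an adjusted p under 0.05, and no adjusted p was under 0.168. Without adjustment, 5.83% of genes were higher in knockout at a p under 0.05 and 5.35% were lower. With 2 libraries against 2, an exact permutation test cannot give a two-sided p under 0.333.

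**Figure D1:**
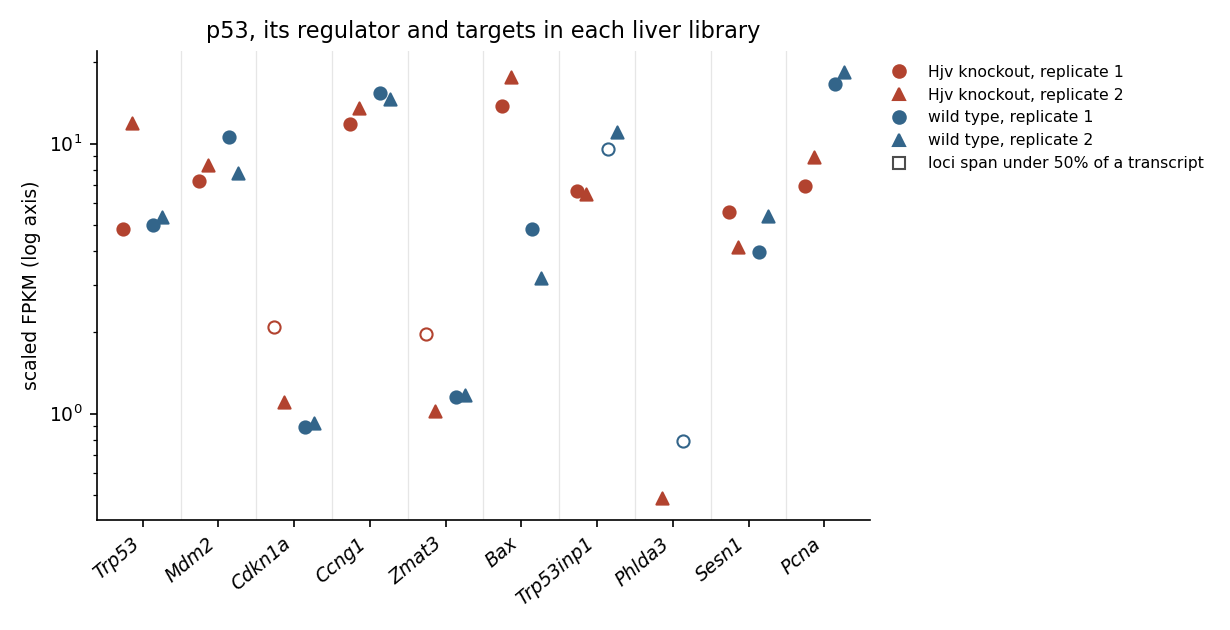
Scaled FPKM of each member on a log axis, 1 point per library, Hjv knockout in red to the left of wild type in blue, circles for replicate 1 and triangles for replicate 2, and hollow points where loci span under 50% of a coding transcript. Bax sits at 13.8 and 17.6 in knockout, against 4.82 and 3.17 in wild type, and Pcna shows the opposite order at 6.99 and 8.88, against 16.6 and 18.4.

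Bax, the pore-forming BCL2 family protein that permeabilises the outer mitochondrial membrane, had 13.8 and 17.6 scaled FPKM in knockout livers, against 4.82 and 3.17 in wild type livers. Both knockout libraries were above both wild type libraries, with no overlap. The means were 15.7 ± 2.66 in knockout and 4.0 ± 1.17 in wild type (SD, n = 2 each), a ratio of 3.93. The log2 difference was 1.75 with an SE of 0.26, and 35 of the 7926 genes tested had a larger one.

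Bax lies on chromosome 7, 45461697 to 45466898, minus strand, GRCm38. In each library 1 locus reached 5 blocks of merged exons and spanned 89.2% to 100% of a coding transcript, so the Bax value does not depend on how pieces were joined. The deposited FPKM were 16.5 and 16.8 in knockout, with bounds of 12.9 to 20.1 and 15.7 to 17.9. In wild type they were 4.51 and 2.90, with bounds of 3.85 to 5.17 and 1.96 to 3.13. These bounds cover counting error within a library and not the spread between livers. The neighbouring gene Ftl1, the ferritin light chain that stores iron, had 712 and 2380 scaled FPKM in knockout, against 654 and 587 in wild type. The neighbour Dhdh, a dihydrodiol dehydrogenase, had 49.8 and 43.7 in knockout, against 37.7 and 45.2 in wild type, and its groups overlapped.

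The size of the Bax difference moved with GC content, the share of G and C bases in a transcript. The longest Bax coding transcript is 63.5% GC, against a median of 49.4% over the genes tested. Over those 7926 genes, the knockout minus wild type difference had a Spearman correlation of 0.384 with GC content, and the log2 ratio of knockout library 2 over library 1 had one of 0.478, both as descriptions across genes of the same 4 libraries. After each library's GC trend was removed, Bax measured 16.1 and 8.40 in knockout, against 7.34 and 4.29 in wild type. Knockout stayed above wild type, with a log2 difference of 0.93 and an SE of 0.38. No other alternative gave a Bax log2 difference above 1.99, and leaving out each library in turn gave 1.51 to 1.99.

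**Figure D2:**
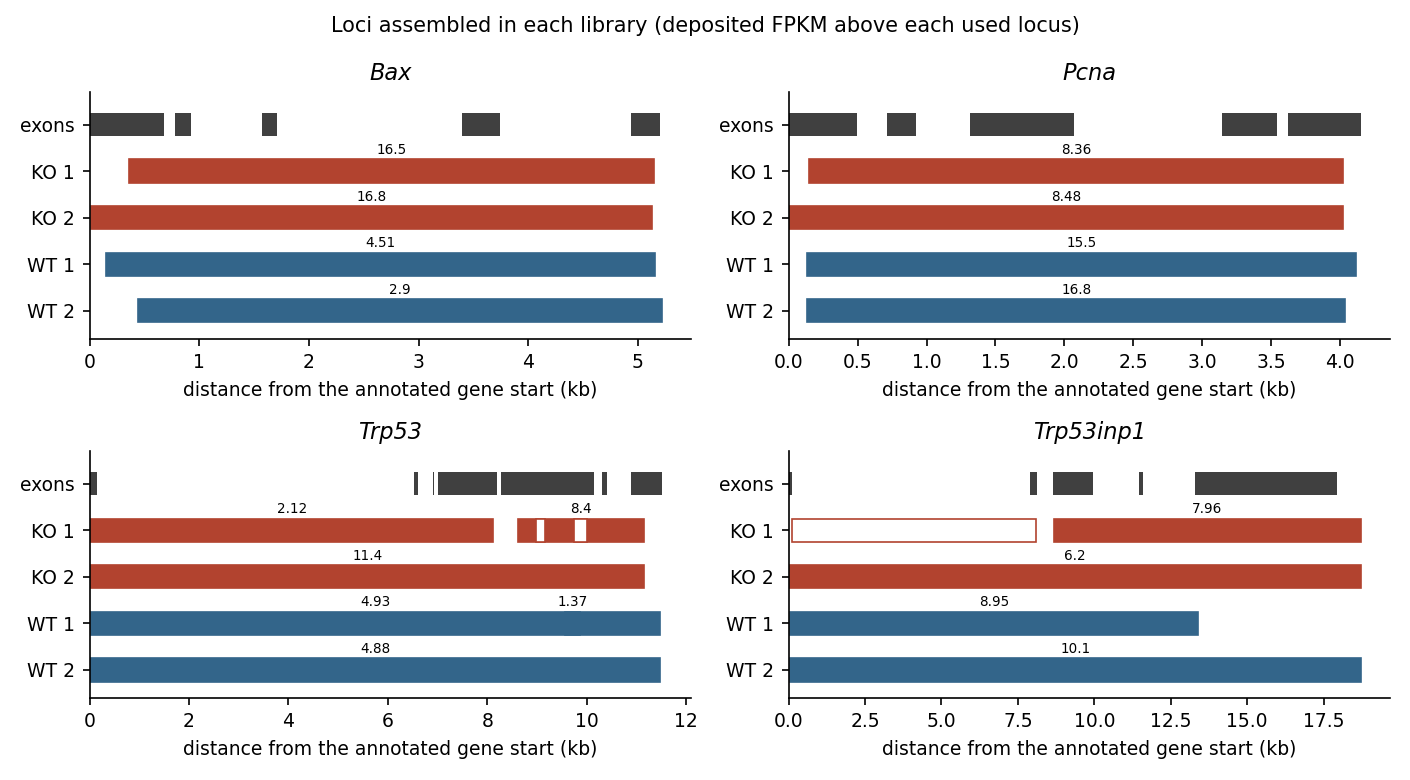
Loci assembled over Bax, Pcna, Trp53 and Trp53inp1, drawn from the annotated gene start in the direction of transcription (kb), with exons in dark grey, knockout libraries (KO) in red above wild type libraries (WT) in blue, deposited FPKM above each used locus and white boxes for loci left out. Bax and Pcna are each crossed by 1 locus in every library, whereas Trp53 in knockout replicate 1 is split into loci of 2.12 and 8.40 FPKM.

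Trp53 (chromosome 11, 69580359 to 69591873, plus strand) had 4.83 and 11.9 scaled FPKM in knockout, against 4.99 and 5.34 in wild type. Knockout replicate 2 was the only high library, and knockout replicate 1 lay below both wild type libraries, so the groups overlapped. The means were 8.36 ± 4.99 in knockout and 5.16 ± 0.245 in wild type (SD, n = 2 each), and the log2 difference was 0.49 (SE 0.41, limma adjusted p 0.651). Without knockout replicate 2 the log2 difference was -0.08. In knockout replicate 1 the gene was split, with 2.12 FPKM over its 5′ part and 8.40 over its 3′ part, against 1 locus of 11.4 FPKM in knockout replicate 2. These are mRNA levels, and p53 is controlled largely through the stability of its protein, which was not measured.

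Mdm2 (chromosome 10, 117688875 to 117710758, minus strand), the ubiquitin ligase that degrades p53 and is itself a p53 target, had 7.23 and 8.31 scaled FPKM in knockout, against 10.6 and 7.75 in wild type. Wild type replicate 1 was highest and the groups overlapped. The log2 difference was -0.20 (SE 0.23, limma adjusted p 0.738). Its sign turned with how loci were joined, at 0.04 with the highest locus of the gene and 0.68 with the sum of its loci, and both knockout libraries hold Mdm2 in 2 loci and both wild type libraries in 1.

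Cdkn1a, Ccng1 and Zmat3 are p53 targets tied to the cell cycle. Cdkn1a (chromosome 17, 29090976 to 29100727, plus strand), the cyclin-dependent kinase inhibitor p21 and the best known arrest target of p53, had 2.10 and 1.11 scaled FPKM in knockout, against 0.894 and 0.925 in wild type. Both knockout libraries were above both wild type libraries. The value of knockout replicate 1 rests on a locus of 300 bases that spans 15.7% of a coding transcript, with a deposited FPKM of 2.51 above its own bounds of 0.606 to 1.88, and Cdkn1a was not tested for that reason. In knockout replicate 2 the bounds were 0.90 to 1.21, which overlap the bounds of 0.603 to 1.04 and 0.569 to 1.10 in wild type. With no limit on the span, the log2 difference was 0.41 (SE 0.29, limma adjusted p 0.683).

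Ccng1 (chromosome 11, 40748552 to 40755311, minus strand), cyclin G1, a p53 target that acts with protein phosphatase 2A on Mdm2, had 11.8 and 13.6 scaled FPKM in knockout, against 15.4 and 14.6 in wild type. Both knockout libraries were below both wild type libraries. The log2 difference was -0.23 (SE 0.18, limma adjusted p 0.644). The groups overlapped on the deposited scale, and also after the GC trend was removed. Zmat3 (chromosome 3, 32334792 to 32366014, minus strand), a zinc finger RNA-binding protein, had 1.96 and 1.02 scaled FPKM in knockout, against 1.15 and 1.18 in wild type, with overlap. Its loci in knockout replicate 1 spanned 46.5% of a coding transcript, so it was not tested. With no limit on the span, its log2 difference was 0.17 with an adjusted p of 0.880 by limma.

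Of the other members tied to cell death, Trp53inp1 did not show the order seen for Bax, and Phlda3 could not be compared. Trp53inp1 (chromosome 4, 11156431 to 11174379, plus strand), a p53-induced nuclear protein that promotes cell death and autophagy, had 6.65 and 6.49 scaled FPKM in knockout, against 9.57 and 11.0 in wild type. Both knockout libraries were below both wild type libraries, opposite to Bax. It was not tested because the locus in wild type replicate 1 spans 14.9% of a coding transcript, and with no limit on the span its log2 difference was -0.59 (SE 0.19, limma adjusted p 0.530). Phlda3 (chromosome 1, 135766119 to 135769136, plus strand), a repressor of Akt signalling, was not assembled in knockout replicate 1 and measured 0.485 scaled FPKM in knockout replicate 2, against 0.789 in wild type replicate 1 and no locus in wild type replicate 2. A gene with no locus is not a gene at 0, and no comparison was made for Phlda3.

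Sesn1 (chromosome 10, 41809935 to 41908424, plus strand), a sestrin that restrains mTORC1 and helps to regenerate peroxiredoxins, had 5.56 and 4.13 scaled FPKM in knockout, against 3.97 and 5.39 in wild type. Each group had 1 high and 1 low library, and the groups overlapped. The log2 difference was 0.04 (SE 0.24, limma adjusted p 0.962).

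Pcna (chromosome 2, 132249162 to 132253314, minus strand), the sliding clamp that holds DNA polymerases on the template and is induced by p53 in some settings, had 6.99 and 8.88 scaled FPKM in knockout, against 16.6 and 18.4 in wild type. Both knockout libraries were below both wild type libraries. The means were 7.93 ± 1.34 in knockout and 17.5 ± 1.27 in wild type (SD, n = 2 each), a ratio of 0.454. The log2 difference was -1.06 (SE 0.20, limma unadjusted p 0.00387, adjusted p 0.383), which does not pass, and the adjusted p of its alternatives ran between 0.0702 and 0.996. In every library 1 locus reached 5 blocks of merged exons and spanned 81.8% to 91.2% of a coding transcript. This locus had 8.36 and 8.48 FPKM in knockout, with bounds of 6.59 to 8.37 and 7.07 to 8.23. In wild type the same locus had 15.5 and 16.8 FPKM, with bounds of 14.6 to 16.5 and 13.6 to 16.3.

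The Pcna value is uncertain because the genome holds a near-identical copy. The processed pseudogene Pcna-ps2 (chromosome 19, 9283380 to 9284160, plus strand, GRCm38) matches the Pcna transcript at 99.2% of 781 aligned bases. Loci over this copy were assembled in the knockout libraries only, a 663-base locus of 15.8 FPKM with bounds of 10.5 to 13.4 in knockout replicate 1 and a 1126-base locus of 4.85 FPKM with bounds of 3.77 to 4.65 in knockout replicate 2, against no locus in either wild type library. A second locus of 199 bases in knockout replicate 1 lay far above its own bounds and was not used. The copy's loci were added whole to Pcna, per base of its transcript. They run past the copy's annotated end at 9284160, to 9284491 in knockout replicate 1 and 9284404 in knockout replicate 2. Bases outside the copy were thus counted, and the added amount can be too large. With it, Pcna measured 12.8 and 12.7 scaled FPKM in knockout, against 16.6 and 18.4 in wild type. The log2 difference was then -0.43 (SE 0.18, limma adjusted p 0.466), less negative than from the gene's own loci. Reads of the gene and of its copy cannot be told apart here. Of the other members, Trp53 alone had such a copy, with no locus over it in any library.

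The wider p53 program was read from 3 lists of targets with 52 genes in all, of which 31 were tested. Both knockout libraries were above both wild type libraries for 6 of the 31 (19.4%) and below for 11 (35.5%), against 22.3% and 23.8% of all genes tested, and the median log2 difference was -0.15, against 0.02. On the deposited scale 6 were above (19.4%) and 4 below (12.9%), against 35.9% and 9.21% of all genes tested, and the median was -0.00, against 0.19. These shares of all genes, at each scale, are the background for the lists that follow. Without the members, 27 targets were tested, with 5 above, 9 below and a median of -0.15. No target passed the adjusted threshold.

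**Figure D3:**
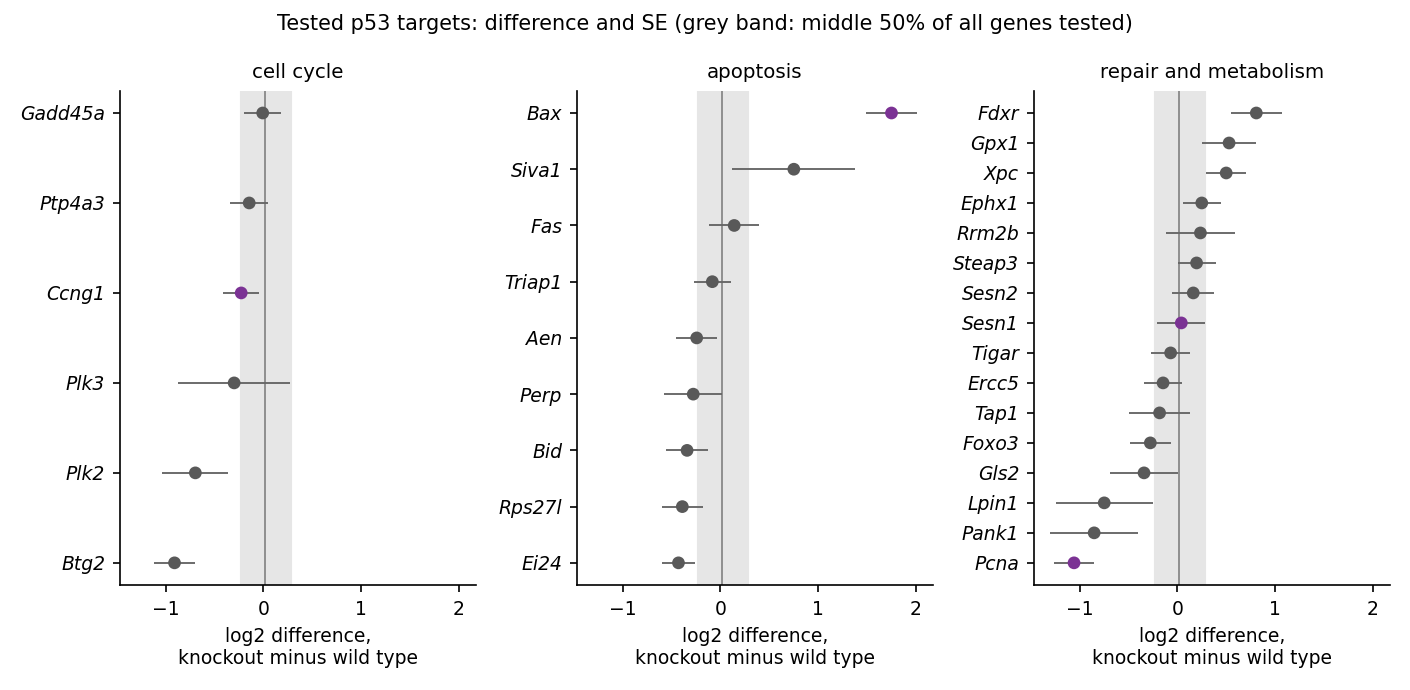
Log2 difference, knockout minus wild type, of each tested p53 target with its SE as a line, in 3 groups, members in purple and the middle 50% of all genes tested as a grey band from -0.23 to 0.29. Bax stands apart at 1.75 among the apoptosis targets, and Btg2 and Pcna lie lowest in their groups at -0.91 and -1.06.

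Among 6 tested targets tied to the cell cycle, 0 were above and 4 below (66.7%, against 23.8% of all genes), with a median log2 difference of -0.26. On the deposited scale 0 were above and 1 below (16.7%, against 9.21% of all genes), with a median of -0.08. Btg2, an antiproliferative regulator of mRNA decay, had 2.09 and 2.62 scaled FPKM in knockout, against 4.88 and 5.72 in wild type. Its groups did not overlap, and its log2 difference was -0.91 (SE 0.21, limma adjusted p 0.402). Plk2, a polo-like kinase induced by stress, had 3.44 and 2.99 in knockout, against 8.22 and 4.05 in wild type. Ptp4a3, a phosphatase, was also below, with a log2 difference of -0.15.

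Among 9 tested apoptosis targets, 1 was above, which was Bax, and 4 were below (44.4%, against 23.8% of all genes), with a median of -0.24. On the deposited scale 1 was above and 2 were below (22.2%, against 9.21% of all genes), with a median of -0.07. Ei24, an endoplasmic reticulum protein, had 65.0 and 64.8 scaled FPKM in knockout, against 86.1 and 89.3 in wild type. Rps27l, a ribosomal protein paralog induced by p53, had 227 and 184 in knockout, against 258 and 279 in wild type. Both genes lay below wild type in each knockout library, with log2 differences of -0.43 and -0.39. Bid, which activates Bax at the mitochondrion, had 5.61 and 4.81 in knockout, against 5.98 and 7.82 in wild type, and Aen, a nuclease, had a log2 difference of -0.24.

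Among 16 tested targets in repair and metabolism, 5 were above and 3 below (31.2% and 18.8%, against 22.3% and 23.8% of all genes), with a median of -0.01. Without scaling 5 were above and 1 below, with a median of 0.15. Fdxr, the ferredoxin reductase of mitochondrial electron transfer and iron-sulfur cluster assembly, had 3.00 and 4.37 scaled FPKM in knockout, against 1.32 and 2.03 in wild type. Its log2 difference of 0.81 had an adjusted p of 0.431 by limma and became 0.25, with overlapping groups, once the GC trend was removed. Xpc, which recognises damaged DNA, had 4.82 and 6.07 in knockout, against 3.36 and 3.72 in wild type. The glutathione peroxidase Gpx1 had 704 and 1034 in knockout, against 559 and 624 in wild type, whereas Foxo3, a stress-responsive transcription factor, was below with a log2 difference of -0.28.

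Of 17 listed genes for p53 and its regulators, 10 were tested, with 3 above, 1 below and a median of 0.15. Without scaling 6 were above and 1 below (60% and 10%, against 35.9% and 9.21% of all genes), with a median of 0.34. Mdm4, the partner of Mdm2, had 4.55 and 4.66 scaled FPKM in knockout, against 4.10 and 3.00 in wild type, though a near-identical copy of it carries loci in all 4 libraries. Ppm1d, the phosphatase that shuts the p53 response down, and Ep300, an acetyltransferase that acts with p53, were also above, with log2 differences of 0.31 and 0.19. Rchy1, another ubiquitin ligase for p53, had 6.5 and 8.72 in knockout, against 9.0 and 20.4 in wild type.

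Bax can also be set among its own family, the BCL2 proteins, which decide whether the mitochondrial membrane opens. Of 15 listed, 9 were tested, with 2 above, 1 below (22.2% and 11.1%, against 22.3% and 23.8% of all genes) and a median of 0.08. On the deposited scale 4 were above and 0 below (44.4% above, against 35.9% of all genes), with a median of 0.26. Bax itself is 1 of the genes above. The second gene above was Bad, a pro-death member, with 4.37 and 11.0 scaled FPKM in knockout, against 2.26 and 3.68 in wild type. Its log2 difference was 1.04 (SE 0.45, limma adjusted p 0.480), and 0.69 once the GC trend was removed. It was 1.62 without knockout replicate 1 and 0.46 without knockout replicate 2. The other tested pro-death members overlapped, with log2 differences of 0.37 for Bcl2l11, 0.24 for Bik and -0.02 for Bmf, while Bid was the gene below.

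The tested survival members had log2 differences of -0.05 for Mcl1, 0.08 for Bcl2l1 and -0.00 for Bcl2l2. Mcl1 had 43.1 and 34.4 scaled FPKM in knockout, against 41.5 and 38.4 in wild type. Bcl2l1 had 6.00 and 11.2 in knockout, against 6.60 and 9.02 in wild type, and Bcl2l2 had 5.46 and 5.49, against 5.21 and 5.79. All of these groups overlapped. Bbc3, the p53 target PUMA, chosen for mention after its values were seen, had 2.76 and 6.25 in knockout, against 0.939 and 1.38 in wild type, but its loci spanned under 50% of a transcript in 3 libraries, so it was not tested. Its transcript is 65.2% GC.

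A list of 13 mitochondrial apoptosis genes mixes effectors with genes that regulate caspases, so its counts have no single meaning for cell death. Of these 9 were tested, with 0 above, 4 below (44.4%, against 23.8% of all genes) and a median of -0.16. On the deposited scale 1 was above and 1 below (11.1% each, against 35.9% and 9.21% of all genes), with a median of 0.02. Aifm1, a mitochondrial flavoprotein that can be released to the nucleus, had 28.2 and 39.0 scaled FPKM in knockout, against 48.8 and 48.3 in wild type. The caspase-regulating ligases Birc3 and Birc2 were also below, with log2 differences of -0.26 and -0.18.

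The list of growth arrest genes, which also holds the p53 targets Cdkn1a, Gadd45a and Btg2, had 10 of 22 genes tested, with 2 above, 2 below and a median of 0.07. Deposited values gave 3 above, 1 below and a median of 0.25. Gas2, a cytoskeletal gene named for its induction in growth-arrested cells, had 15.3 and 17.4 scaled FPKM in knockout, against 10.2 and 9.79 in wild type, with an adjusted p of 0.418 by limma. Btg1, the close relative of Btg2, had 21 and 15.8 in knockout, against 25.3 and 36.9 in wild type, with an adjusted p of 0.447 by limma. The cyclin-dependent kinase inhibitor Cdkn2c was above, with a log2 difference of 0.33.

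Since Pcna is a replication gene as well as a p53 target, it was read within a list of 31 replication and proliferation genes, Pcna included. Of these 13 were tested, with 0 above, 4 below (30.8%, against 23.8% of all genes) and a median of -0.06. Deposited values gave 1 above, 2 below and a median of 0.07. The genes below on the main scale were Pcna, Rfc4, Rfc1 and Cdk2. Rfc4, a subunit of the complex that loads the clamp, had 1.06 and 1.65 scaled FPKM in knockout, against 2.42 and 2.16 in wild type. Rfc1 and Cdk2 had log2 differences of -0.11 and -0.06, and the groups of the other 9 tested genes overlapped.

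**Figure D4:**
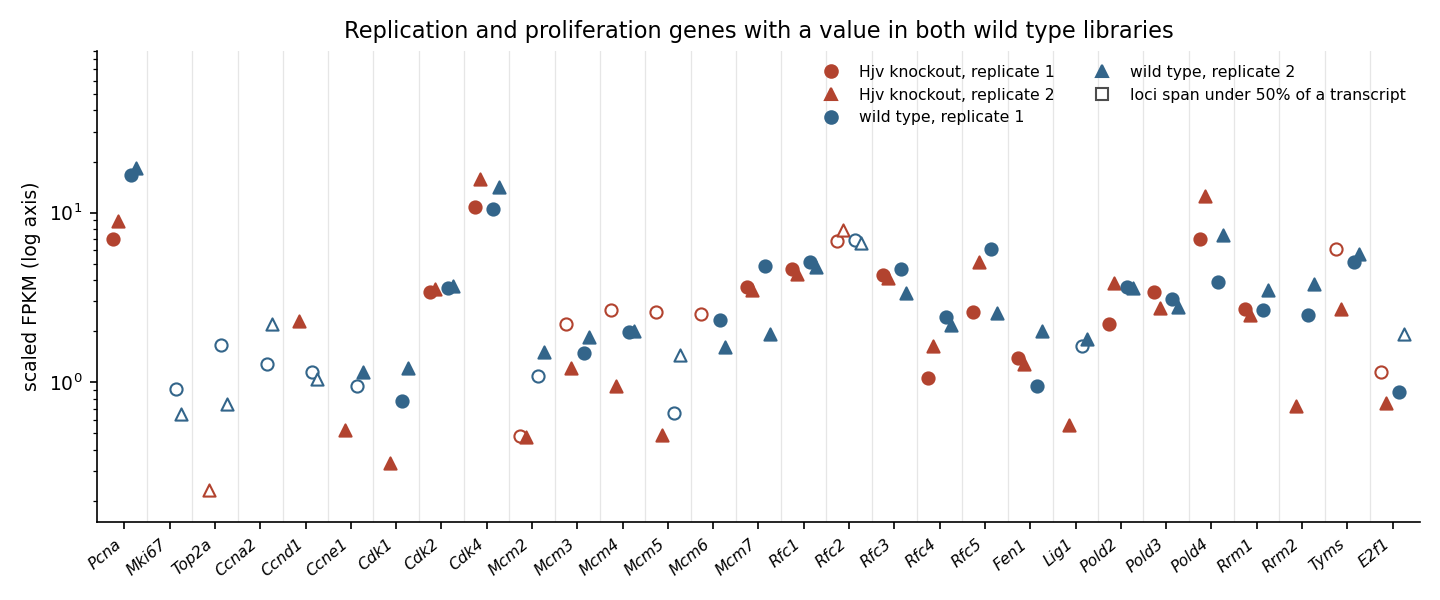
Scaled FPKM on a log axis of the 29 replication and proliferation genes with a value in both wild type libraries, knockout libraries in red to the left of wild type in blue, hollow points where loci span under 50% of a coding transcript and no point where a gene had no value. Pcna at the left has both knockout points below both wild type points, and several low genes such as Mki67 and Ccna2 have no knockout point.

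Many genes of this list were assembled over under 50% of a transcript in some library or had no value there, and values were also taken whatever the span. Of 26 with a value in knockout replicate 2 and both wild type libraries, 17 were lower in knockout replicate 2 than in both wild type libraries (65.4%) and 5 higher (19.2%). Over all genes taken the same way, 45.5% were lower and 35.3% higher. Of the same 26, 6 had no value in knockout replicate 1 (23.1%), against 4.04% of all genes. Among genes with a wild type mean under 4 scaled FPKM, 33.3% of the list and 8.51% of all genes had no value there. In knockout replicate 1, 21 genes of the list had a value beside both wild type libraries, and 6 were lower than both (28.6%) and 6 higher (28.6%), against 33.3% and 45.5% of all genes. The 6 higher ones were Mcm3, Mcm4, Mcm5, Mcm6, Pold3 and Tyms, and all but Pold3 were spanned under 50% in that library. Over the 756 genes spanned under 50% in knockout replicate 1 alone, the median log2 ratio of that library over the other knockout library was 0.98. These are descriptions of single libraries, with no test.

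Mcm2, a subunit of the replicative helicase, had 0.479 and 0.478 scaled FPKM in knockout, against 1.09 and 1.5 in wild type. Its loci spanned 16.8% of a transcript in knockout replicate 1 and 34.8% in wild type replicate 1. Rrm2, a subunit of ribonucleotide reductase, had no value in knockout replicate 1 and 0.726 in knockout replicate 2, against 2.48 and 3.82 in wild type. Cdk1, the mitotic kinase, had no value in knockout replicate 1 and 0.334 in knockout replicate 2, against 0.774 and 1.21 in wild type. The proliferation marker Mki67 and the cyclin Ccna2 had no value in either knockout library, against 0.915 and 0.648 for Mki67 and 1.28 and 2.21 for Ccna2 in wild type. Those wild type values rest on spans of 35.7% and 37.7% for Mki67 and 22.5% and 19.4% for Ccna2. Ccnd1, the cyclin that opens the cell cycle, went the other way in the knockout library where it had a value. It had 2.30 in knockout replicate 2, against 1.15 and 1.05 in wild type, where its loci spanned 20.9% and 20.7%. In knockout replicate 1 Mcm5, another helicase subunit, had 2.61 over 9.52% of a transcript and Mcm4 had 2.67 over 38.6%, against 0.659 and 1.45 for Mcm5 and 1.98 and 2.01 for Mcm4 in wild type. In knockout replicate 2 the same genes had 0.492 and 0.950, below both wild type libraries.

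Other cell types were followed by their markers, since in bulk liver fewer cells of a type and less RNA per cell cannot be told apart. Kupffer cell markers summed to 79.2 and 107 scaled FPKM in knockout, against 109 and 133 in wild type, over 7 of 8 markers with a value in every library. Of the 7 tested, 0 were above and 4 below, where 22.3% and 23.8% of all genes tested were above and below. Hepatocyte markers summed to 10404 and 10171 in knockout, against 8838 and 8227 in wild type, over 6 of 8. Alb and Serpina1a had no value in any library, which can mean that their loci were left out in the assignment. Of 5 hepatocyte markers tested, 1 was above and 1 below, beside the same shares of all genes. Endothelial sums were 61.4 and 77.2 in knockout, against 55.5 and 66.4 in wild type, and stellate sums were 94.6 and 74.7, against 86.1 and 72.4. Neutrophil sums were 2.15 and 2.71 in knockout, against 3.73 and 3.90 in wild type, with Ly6g and Mpo at no value. Lymphocyte sums were 5.41 and 2.70, against 2.65 and 3.17, and cholangiocyte sums 26.1 and 13.6, against 33.4 and 23.1. Each of these 3 sums rests on only 2 markers, out of 6 for neutrophils, 8 for lymphocytes and 6 for cholangiocytes. No erythroid marker had a value in every library, and 4 of 6 had none in any. The part of these cell types in the Bax, Pcna and replication values was not tested.

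The genes whose pattern over the 4 libraries was most like that of Bax, by the root mean square difference of centred log2 values among the other 7925 genes tested, were Aldh2, Tmem51 and Ildr2. Aldh2, the mitochondrial aldehyde dehydrogenase, had 740 and 907 scaled FPKM in knockout, against 255 and 264 in wild type, at a distance of 0.196 from Bax. Tmem51, a membrane protein, had 9.56 and 12.3 in knockout, against 1.99 and 1.89 in wild type, at a distance of 0.202. Ildr2, another membrane protein, had 8.50 and 7.11 in knockout, against 1.90 and 1.42 in wild type, at a distance of 0.212. These 3 genes were picked by their likeness to Bax, so their order follows from that choice. None of the 3 is on the lists of p53 targets used here. Those lists held only 31 of the 7926 genes tested, so nothing is read from their absence.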

How the data were processed

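RNA was measured by sequencing of TruSeq libraries on a HiSeq 2000, per the labels' protocols, and the submitters' processing notes name FastQC, TopHat, Cufflinks and the build mm9. The authors deposited FPKM with confidence bounds for loci assembled in each library, with no gene names. Locus ends fit GRCm38 genes: 14.2% to 34.3% of the ends of loci over 2000 bases lay within 20 bases of a gene end, against 0.430% to 0.553% after a shift of 1000000 bases.

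Loci were assigned by position to GENCODE M21 protein-coding genes. Loci whose FPKM exceeded the middle of their own bounds more than 3 times were dropped. A gene entered where its loci covered 50% or more of a coding transcript. Predicted read-through models that share exons with a named gene, such as the one over Bax, were left out. Libraries were scaled with median-of-ratios factors, and of 7949 genes with a value in all of them, the 7926 that reached 1 FPKM in 2 or more were tested with limma 3.58.1 in R 4.3.3 on log2(scaled FPKM + 1), two-sided, with a trend and Benjamini-Hochberg adjustment, at a threshold of 0.05. The procedure was tested on simulated data. Copies were sought with BLAST at 90% identity over at least 300 bases and 25% of the transcript. Same-numbered libraries did not pair (r = 0.0788).

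The members and lists were chosen with earlier results of these data known. Named genes were all members, up to 4 per list with the smallest unadjusted p among tested genes whose groups did not overlap, all tested BCL2 genes, and the 3 genes nearest Bax. Neighbours, list genes with no value in some library and Bbc3 were chosen after their values were seen. Alternatives were pseudocounts, filters, scaling, limma settings, ways of joining loci, a replicate block and each library left out. The values of 1 listed gene are not reported here, although the counts of its list include it.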

Additional observations from a re-analysis of the deposited data

How the results depend on the processing

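Depth, fragmentation and 2 libraries a group limit these values. With all 4 libraries and the scaled values of the main fit, no gene passed an adjusted p under 0.05 by limma. Low genes such as Cdkn1a and Phlda3 were assembled in part. Bax, Ccng1 and Pcna kept their sign in all 20 alternatives, Trp53 in 19 of 20, Mdm2 in 17 of 20 and Sesn1 in 16 of 19. Several alternatives cannot change a gene's own difference, so these counts overstate the agreement. They are the filters on low values, the limma settings, the replicate block and, except for Pcna itself, the added loci of the Pcna copy. The sign of Bax also follows from its choice. Leaving out 1 library gave 1 to 488 genes past the adjusted threshold, with 488 when knockout replicate 1 was left out and 13 when knockout replicate 2 was, and 2 and 1 for the wild type libraries, and values as deposited gave 1. In these fits a lone library is assumed to vary like the other group. The cause was not tested.

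The members whose groups did not overlap, 3 of 6, became 3 to 6 when 1 library was left out, with 6 lacking knockout replicate 2 and 5 lacking wild type replicate 2. Over all genes the groups did not overlap for 46.1% with 4 libraries, 80.8% and 77.9% lacking knockout replicate 1 or 2, and 65.7% and 67.8% lacking wild type replicate 1 or 2. Scaling moved the share of higher genes among those at an unadjusted p under 0.05, 52.1% as reported and 86.2% as deposited, where the median of all genes was 0.19. The sign turned for Trp53 lacking knockout replicate 2 (-0.079, in a range of -0.079 to 1.07 with 1 library left out). It turned for Mdm2 with the highest locus (0.040), the sum of loci (0.68) and lacking wild type replicate 1 (0.00036, in a range of -0.40 to 0.00036). It turned for Sesn1 with quantile normalization (-0.032) and lacking replicate 1 of either group (-0.14 each, in a range of -0.14 to 0.22).

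Chosen after seeing the data were no limit on the span, the midpoint of the confidence bounds, the GC correction, and adding the loci of the Pcna copy. No limit on the span gave 5 members of 9 without overlap (55.6%, against 45.9% of the 7926 genes tested). The GC correction left 2 members of 6 without overlap (33.3%, against 45.9%), and Bax at 0.93. With the replicate number as a block, 0 genes were called and 3 members did not overlap, although same-numbered libraries share only a number and their pairing was not borne out (r = 0.0788).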
